A study of Canis lupus familiaris with 25 samples.

Results

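The transforming growth factor beta (TGF beta) and bone morphogenetic protein (BMP) superfamily was examined as a set of 50 genes that encode ligands, receptors, latent TGF beta binding proteins, secreted antagonists, SMAD transducers, SMAD ubiquitin ligases and the ID target genes. The genes were taken by symbol as members of the family. Of these 50 members, 49 had a row in the count table, which holds 24532 genes, and BMP3 was the 1 without a row of that symbol. The ligands of the family are secreted dimers that bring together type I and type II serine/threonine kinase receptors. TGF beta and activin receptors pass the signal to SMAD2 and SMAD3, while BMP receptors pass it to SMAD1, SMAD5 and SMAD9, and both branches share SMAD4. In epithelium the TGF beta branch is best known for restraining growth and for shaping stroma, and the BMP branch for guiding differentiation, with the ID genes as direct BMP targets.

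The samples were archival formalin-fixed, paraffin-embedded (FFPE) tumors of pet dogs of several breeds, and no treatment is given for any of them. Hepatoid gland adenoma (HGA), a benign tumor of the perianal glands, was represented by 10 tumors from dogs aged 8 to 14 years, of which 5 were female and 6 were intact. Apocrine gland anal sac adenocarcinoma (AGASAC) was represented by 11 primary tumors from dogs aged 8 to 12.5 years, of which 5 were female and 2 were intact, and by 4 metastases in sublumbar lymph nodes. The 4 metastases came from the dogs of primary tumors 1 to 4, which were 8 to 10 years old. RNA was measured by QuantSeq 3′, which reads polyadenylated transcripts near their 3′ ends, at 1562347 to 6389555 counts per sample. Each tumor is a mixture of cells, and in such bulk samples fewer cells of a type and less RNA per cell cannot be told apart.

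Levels are given as CPM, the counts of a gene scaled to a common library total, with TMM factors over all 25 samples, as the lowest, median and highest sample of a group. The first principal component, over genes with a mean above 5 CPM, separated HGA from AGASAC and held 50.8% of the variance. HGA 10 (score −114) and HGA 4 (score −60.0) stood apart from all other samples on the second, which held 5.75%. These libraries also had the highest summed CPM of 5 proliferation markers in HGA, at 221 and 158 against a median of 16.5 in that group. Summed CPM of 6 squamous epithelium markers was 3219 to 12874 in HGA and 58.4 to 218 in primary AGASAC. Summed CPM of 6 luminal gland markers was 409 to 731 in HGA, 5392 to 10188 in primary AGASAC and 5251 to 10452 in the metastases. Markers of lymph node stroma summed to 7.79 to 15.97 CPM in the metastases, within the range of all primary tumors, at 0.729 to 26.2 CPM. By dog, however, this sum was higher in each metastasis than in its own primary. In primaries 1 to 4 it was 4.52, 8.17, 1.48 and 6.67 CPM, and in their metastases 7.79, 9.02, 14.8 and 15.97 CPM. In HGA this sum was higher, at 12.5, 45.4 and 150 CPM. Summed CPM of 5 T cell markers was 35.0 to 53.4 in the metastases and 12.1, 21.1 and 96.5 in the primaries. The part of lymph node tissue in the metastases was not tested. Of the dogs with male HGA 4 were intact and 1 was neutered, whereas all 6 males with primary AGASAC were neutered, so in males status and tumor type could hardly be separated, and the part of status in the results was not tested.

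In the “HGA versus AGASAC” comparison of the primary tumors, the members moved in both directions. TGFBR3, LTBP4, SMAD2, ID1 and ID3 were higher in HGA, and TGFB1, INHBB, TGFBR1, ACVR1B, ACVR2B and SMAD7 were lower. A call needed an adjusted p (Benjamini-Yekutieli, BY) up to 0.05 in edgeR's quasi-likelihood test together with a log2 fold change (log2FC) of at least 1 in size, and all adjusted p values below are from that test. After the filter on low counts, 31 of the 49 members were tested and 11 were called, 5 higher and 6 lower in HGA. Among all 12070 genes tested, 25.1% were called, 12.6% higher and 12.5% lower in HGA, against 35.5% of the members (11 of 31). Whether the members differed from that background was not tested, and they were chosen with earlier results of these data known. By adjusted p alone, 14 of 31 members passed, against 30.9% of all genes. The groups did not overlap in 5 members, INHBB, TGFBR3, SMAD2, ID1 and ID3, against 9.13% of all genes. The median log2FC of the tested members was −0.18 and that of all genes was −0.03, while the median size of the log2FC was 0.92 in the members and 0.63 in all genes. With library size alone in place of TMM the median of all genes moved to −0.33, and 14 members were called, 4 higher and 10 lower. None of the 11 called members changed direction under any setting tried.

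**Figure D1:**
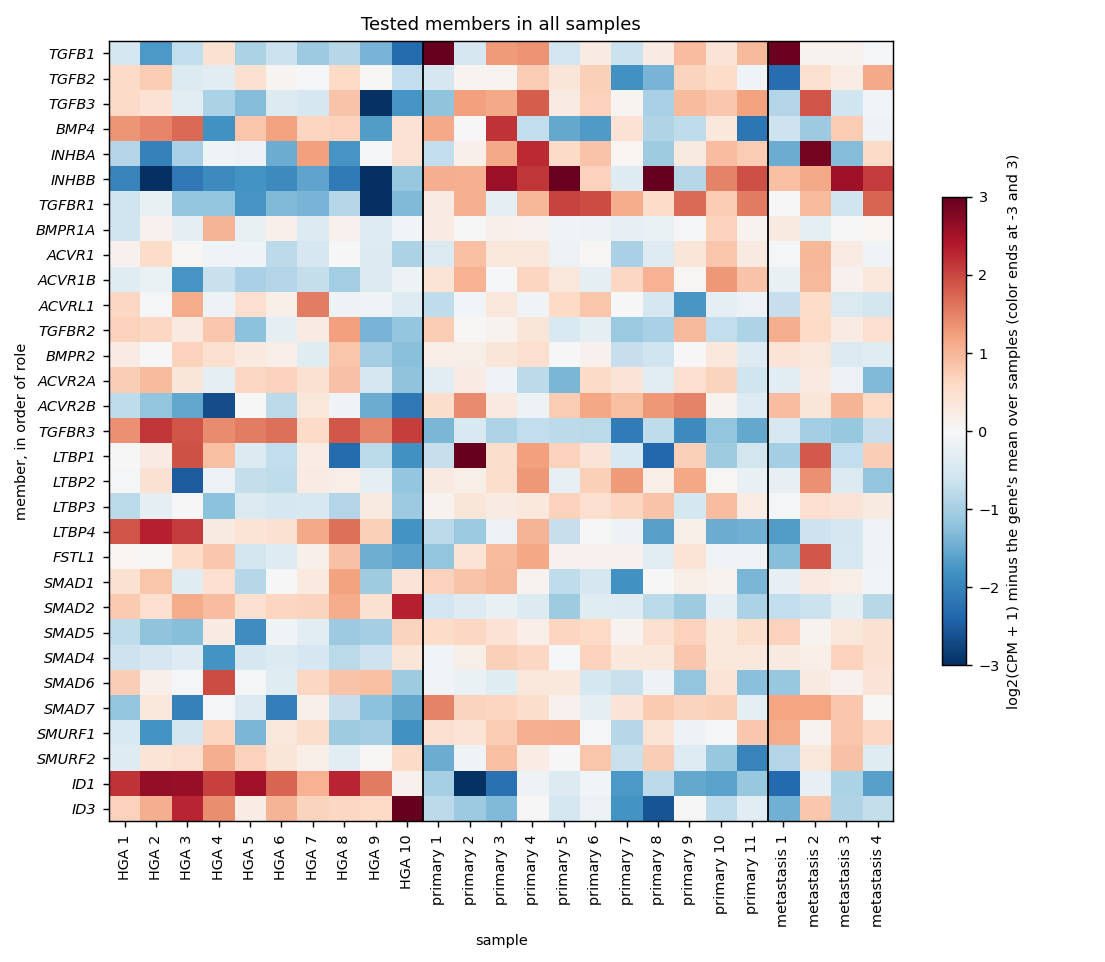
Heatmap of the 31 tested members (rows, in order of role) in the 25 samples (columns, with lines between HGA, primary AGASAC and metastases). Color is log2(CPM + 1) minus the gene's mean over all samples, and the rows of TGFBR3, SMAD2, ID1 and ID3 are high across the 10 HGA while those of INHBB and TGFBR1 are low there.

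Among the 3 TGF beta ligands, only TGFB1 was called. TGFB1, the isoform best known from immune and stromal cells, was at 0.860, 3.94 and 11.7 CPM in HGA and at 4.89, 11.1 and 76.0 CPM in primary AGASAC. The groups overlapped, although 9 of 10 HGA lay below the median of the primaries. The log2FC was −2.06 ± 0.48 (SE, n = 10 and 11, edgeR adjusted p = 0.0115). Primary 1 alone held the 76.0 CPM, and without it the log2FC was −1.53. With extraction batch as a term the log2FC of TGFB1 was −1.88 and the call ended (edgeR adjusted p = 0.0807). TGFB2 was level, with a log2FC of 0.07 ± 0.33, and TGFB3 had a log2FC of −1.15 ± 0.49 that did not pass (edgeR adjusted p = 0.579).

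Apart from BMP4, the BMP ligands had low counts in both tumors. Of the 6 found, only BMP4, a ligand that patterns epithelium and mesenchyme, reached the filter. It was at 1.84, 15.96 and 31.4 CPM in HGA and at 1.21, 5.00 and 44.2 CPM in primary AGASAC, with a log2FC of 0.67 ± 0.54 that did not pass (edgeR adjusted p = 1). BMP2 and BMP6 reached at most 8.89 and 11.2 CPM in primary AGASAC, and 8.61 and 11.2 CPM in HGA. BMP5 had no count in 7 of 10 HGA and 6 of 11 primaries, and BMP7 had none in 10 of 11 primaries and at most 7 counts in an HGA. GDF10 did not exceed 17 counts in any sample.

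The activin subunits carried the widest gap of the ligands. INHBB encodes the beta B subunit, which forms activin B as a dimer and inhibin B when joined to the alpha subunit. INHBB was at 0, 4.71 and 9.03 CPM in HGA and at 11.2, 61.0 and 181 CPM in primary AGASAC, so the highest HGA lay below the lowest primary. The log2FC was −4.12 ± 0.51 (edgeR adjusted p = 5.69e-06), and within the 3 extraction batches fitted alone it ran from −4.25 to −3.91. INHBA, the beta A subunit, was at 4.97, 16.4 and 56.5 CPM in HGA and 10.7, 35.4 and 114 CPM in primary AGASAC, and its log2FC of −0.98 ± 0.41 did not pass (edgeR adjusted p = 0.538). INHA, the alpha subunit that turns these dimers into inhibins, had 0 counts in 10 of 10 HGA and at most 4 counts in a primary. A count of 0 allows up to 3 counts per library, or 0.470 to 1.92 CPM over the HGA libraries by library size without TMM. GDF15, a stress-induced distant member, did not exceed 10 counts and was not tested.

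Of the 5 type I receptors tested, TGFBR1 and ACVR1B were called, and both were lower in HGA. TGFBR1, the type I receptor of TGF beta, was at 0.424, 8.16 and 17.6 CPM in HGA and at 16.9, 44.4 and 87.5 CPM in primary AGASAC. HGA 2, at 17.6 CPM, was the only HGA within the range of the primaries. The log2FC of TGFBR1 was −2.47 ± 0.36 (edgeR adjusted p = 6.09e-05). ACVR1B, a type I receptor of activin, was at 12.0, 26.6 and 39.1 CPM against 35.8, 67.1 and 108 CPM, with all 10 HGA below the median of the primaries. Its log2FC was −1.26 ± 0.22 (edgeR adjusted p = 0.000433). The receptors of the BMP branch were not called, with log2FC of −0.03 ± 0.19 for BMPR1A, −0.34 ± 0.23 for ACVR1 and 0.60 ± 0.37 for ACVRL1. BMPR1B did not exceed 10 counts in any sample.

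Among the type II receptors, only ACVR2B, which binds activins and related ligands, was called. ACVR2B was at 0, 2.23 and 6.98 CPM in HGA and at 3.89, 9.72 and 16.9 CPM in primary AGASAC, with a log2FC of −1.82 ± 0.45 (edgeR adjusted p = 0.0192). Its groups overlapped, and 7 of 10 HGA lay below the lowest primary. The log2FC of TGFBR2, the type II receptor of TGF beta, was 0.30 ± 0.33, that of BMPR2 was 0.13 ± 0.23 and that of ACVR2A, the second activin type II receptor, was 0.43 ± 0.28. None of these 3 passed the test.

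**Figure D2:**
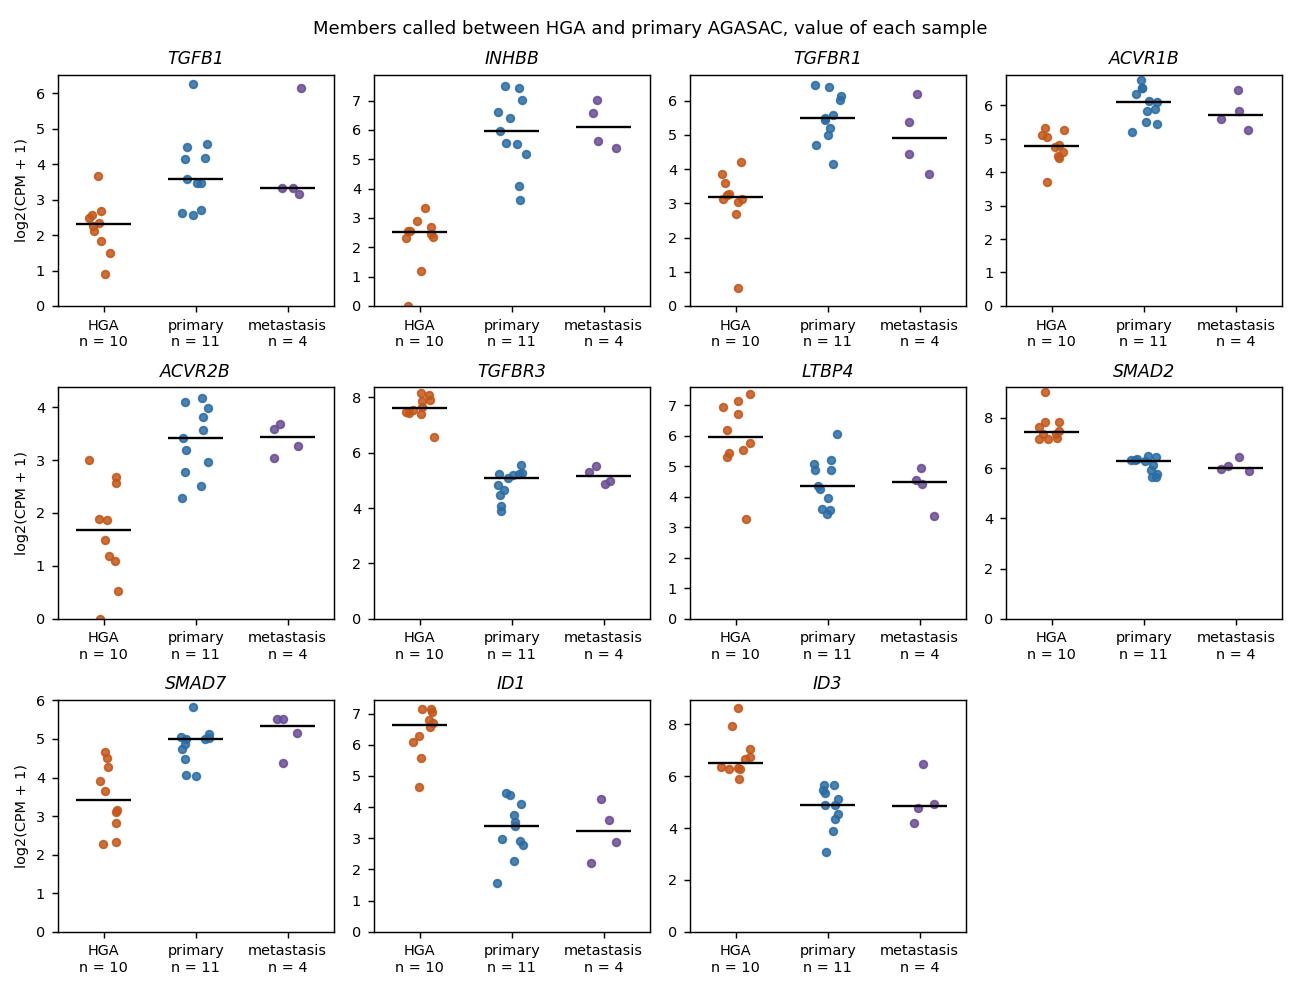
Values of the 11 called members in each sample as log2(CPM + 1), by group, with a bar at the group median. In INHBB, TGFBR3, SMAD2, ID1 and ID3 no HGA point lies within the range of the 11 primaries, and of the 4 metastases only metastasis 2 in ID3, at 87.3 CPM, comes within the range of HGA in these 5.

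TGFBR3 stood out among the co-receptors. TGFBR3, or betaglycan, presents TGF beta2 to the signaling receptors and lets inhibin bind the activin receptors. It was at 94.7, 194 and 282 CPM in HGA and at 14.0, 33.2 and 45.7 CPM in primary AGASAC, so the groups were far apart. The log2FC was 2.79 ± 0.22 (edgeR adjusted p = 5.42e-09), and within the 3 extraction batches fitted alone it ran from 2.08 to 3.22. HGA 7 had the lowest TGFBR3 level of its group and the highest summed endothelium markers, at 592 CPM. BAMBI, a decoy receptor without a kinase, did not exceed 9 counts and was not tested.

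Among the latent TGF beta binding proteins, some of which anchor the inactive ligand in the matrix, only LTBP4 was called. LTBP4, abundant in elastic tissue, was at 8.60, 62.4 and 165 CPM in HGA and at 9.72, 19.4 and 65.9 CPM in primary AGASAC. Its groups overlapped, since HGA 10, at 8.60 CPM, lay below all primaries while 5 HGA lay above all of them. The log2FC was 1.68 ± 0.40 (edgeR adjusted p = 0.0148), and 1.91 ± 0.36 without HGA 4 and HGA 10 (edgeR adjusted p = 0.00136). With library size alone in place of TMM the LTBP4 log2FC was 1.35 and the call ended (edgeR adjusted p = 0.0858). LTBP3 was lower in HGA in the test but short of the fold threshold, with a log2FC of −0.91 ± 0.20 (edgeR adjusted p = 0.00680). LTBP1 and LTBP2 had log2FC of −0.89 ± 0.62 and −0.85 ± 0.30 and did not pass (edgeR adjusted p = 1 and 0.212). Summed CPM of 8 fibroblast markers was 1260, 2610 and 5830 in HGA and 1039, 3623 and 8011 in primary AGASAC, and 0 of these 8 genes were called by edgeR.

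Of the secreted antagonists, only FSTL1, a follistatin-like glycoprotein of stroma, was tested, with a log2FC of −0.18 ± 0.30. FST, which traps activin, was at 2.88 to 20.3 CPM in HGA and at 0 to 5.16 CPM in primary AGASAC, and all 10 HGA lay above the median of the primaries. FST did not reach the filter, so no test was made. NOG, which traps BMP, was at 0 to 9.94 CPM in HGA and at 0 to 2.58 CPM in the primaries. FSTL3, which also traps activin, and the BMP antagonists GREM1 and CHRD did not exceed 7.23 CPM in any HGA or primary AGASAC.

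Of the SMAD transducers only SMAD2 was called. SMAD2, which carries TGF beta and activin signals, was at 143, 172 and 525 CPM in HGA and at 48.6, 77.0 and 88.4 CPM in primary AGASAC, with no overlap. Its log2FC was 1.63 ± 0.21 (edgeR adjusted p = 1.32e-05). The 525 CPM belonged to HGA 10, and without that library the log2FC was 1.37. SMAD3, the partner of SMAD2 in the same branch, was at 0, 1.44 and 3.99 CPM in HGA and 0.904, 4.86 and 11.0 CPM in primary AGASAC. All 10 HGA lay below the median of the primaries, but SMAD3 was below the filter and was not tested.

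SMAD5, a BMP transducer, was at 23.2, 46.5 and 140 CPM in HGA and 93.3, 126 and 141 CPM in primary AGASAC. Its log2FC was −0.94 ± 0.24 (edgeR adjusted p = 0.0280). SMAD4, the shared partner of both branches, was at 32.6, 81.6 and 149 CPM against 109, 144 and 202 CPM, with a log2FC of −0.89 ± 0.19 (edgeR adjusted p = 0.00420). Both passed by adjusted p alone, and in both HGA 10 was the highest HGA. Without HGA 10, or with extraction batch as a term, both were called, at −1.15 and −1.17 for SMAD5 and −1.03 and −1.07 for SMAD4. SMAD1 had a log2FC of 0.25 ± 0.35, and SMAD9 did not exceed 17 counts in any sample.

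The inhibitory SMADs, which SMAD signaling induces as feedback, had log2FC of opposite sign. SMAD7, which blocks TGF beta receptors, was at 3.88, 9.73 and 24.4 CPM in HGA and at 15.5, 30.8 and 55.8 CPM in primary AGASAC, with all 10 HGA below the median of the primaries. Its log2FC was −1.26 ± 0.32 (edgeR adjusted p = 0.0230). This call ended without HGA 1 (log2FC −1.19, edgeR adjusted p = 0.0538) and without primary 1 (log2FC −1.13, edgeR adjusted p = 0.0534). With extraction batch as a term the adjusted p of SMAD7 in edgeR was 0.0958. SMAD6, which acts mainly on the BMP branch, had a log2FC of 0.92 ± 0.35 that did not pass (edgeR adjusted p = 0.332). The ubiquitin ligases SMURF1 and SMURF2, which mark SMADs and receptors for breakdown, had log2FC of −0.94 ± 0.38 and 0.44 ± 0.34, and neither passed.

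Both tested ID genes were higher in HGA. The ID proteins bind and silence basic helix-loop-helix factors and hold back differentiation. ID1 was at 24.1, 98.0 and 141 CPM in HGA and at 1.96, 9.48 and 20.7 CPM in primary AGASAC, without overlap, and the log2FC was 3.18 ± 0.36 (edgeR adjusted p = 1.59e-06). ID3 was at 57.7, 90.6 and 402 CPM in HGA and at 7.37, 28.7 and 50.2 CPM in primary AGASAC, again without overlap. The log2FC of ID3 was 2.17 ± 0.36 (edgeR adjusted p = 0.000300), and 1.81 without HGA 10, which held the 402 CPM. ID2 and ID4 did not exceed 12 and 3 counts in any sample.

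**Figure D3:**
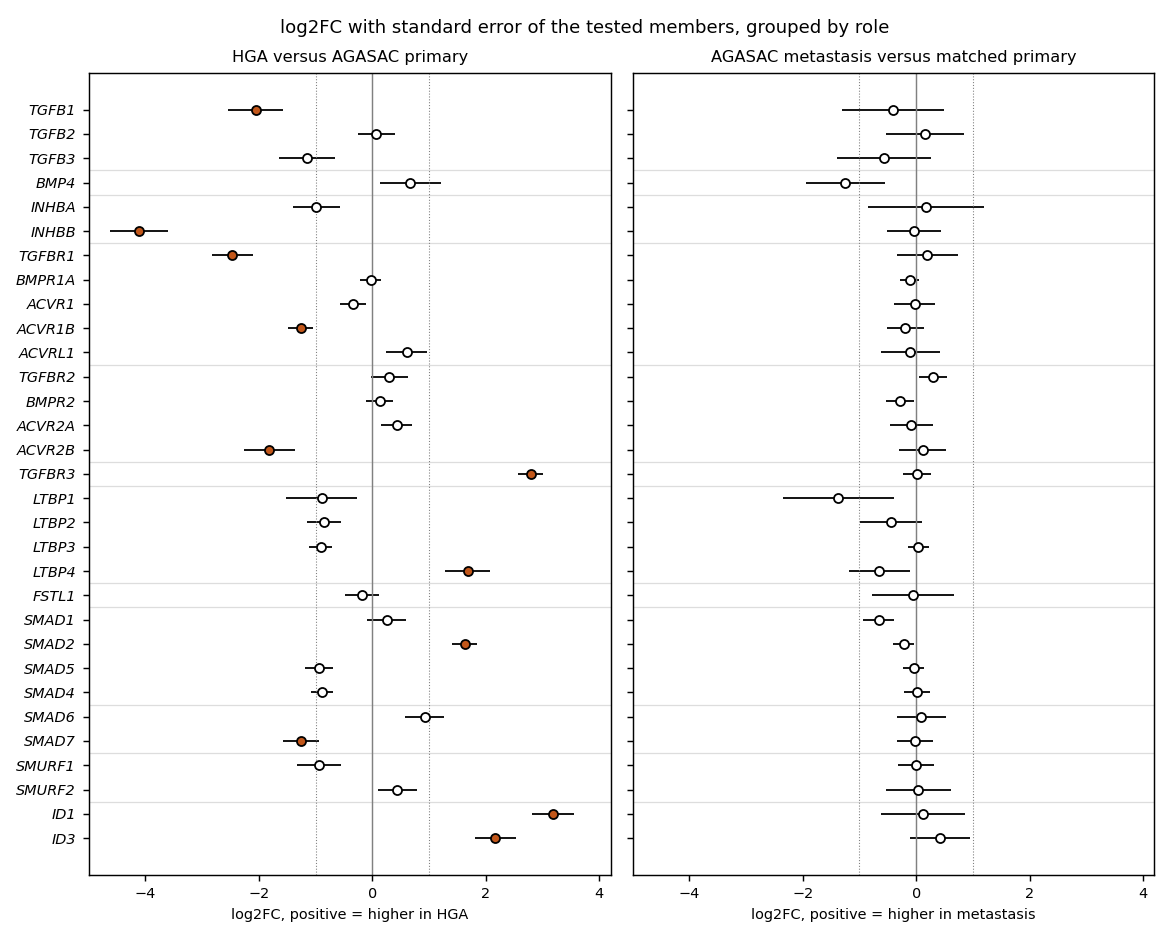
log2FC with its standard error for the 31 tested members in order of role. The “HGA versus AGASAC” comparison of primary tumors is on the left. The 4 metastases against the primaries of the same dogs, fitted without the dog as a block, are on the right. Filled points are called, which holds for 11 members on the left and 0 on the right, and dotted lines mark log2FC of −1 and 1.

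ID1, ID3 and TGFBR3 are also expressed by endothelium, and endothelium markers moved with the groups. Summed CPM of 7 endothelium markers was 211, 262 and 592 in HGA, 55.6, 147 and 242 in primary AGASAC, and 81.8 to 208 in the metastases, and 2 of the 6 tested markers were called higher in HGA. No marker of this list was at 0 in all samples of a group. With the log2 of this sum as a term, which was chosen after seeing the data, ID1 stayed called at 3.42 ± 0.57 (edgeR adjusted p = 0.000907) and TGFBR3 at 3.07 ± 0.32 (edgeR adjusted p = 1.97e-06). ID3 was then at 1.93 ± 0.52 and no longer called (edgeR adjusted p = 0.0712), and LTBP4 was at 0.96 ± 0.60 (edgeR adjusted p = 1). In that fit 5 of 31 members (16.1%) were called, namely INHBB, TGFBR1, TGFBR3, SMAD2 and ID1, and of all genes 14.7% were called, down from 25.1%. The sum itself differed between the groups, and the part of endothelium in these results was not tested further.

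**Figure D4:**
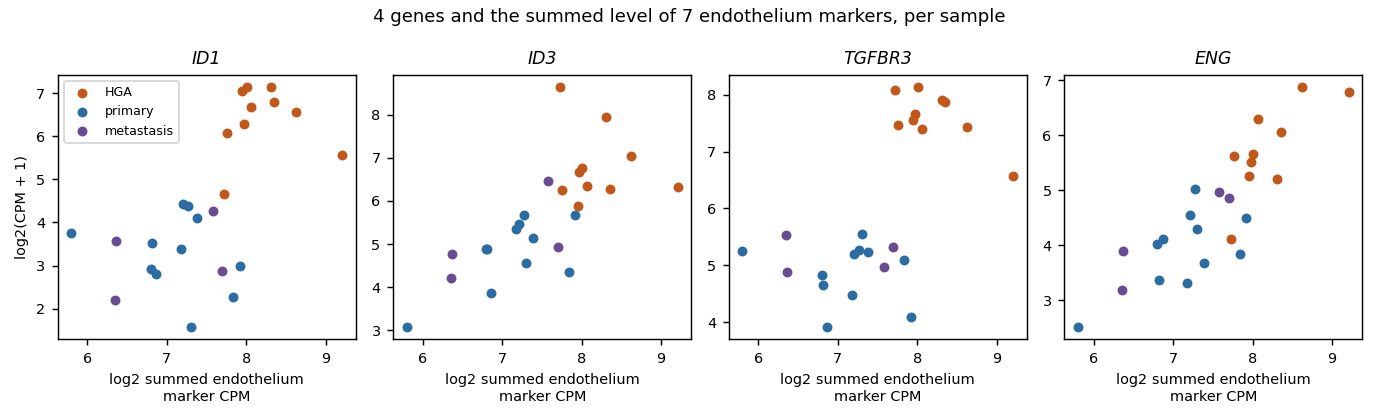
Levels of ID1, ID3, TGFBR3 and ENG as log2(CPM + 1) against the log2 of the summed CPM of 7 endothelium markers, 1 point per sample, colored by group. Most HGA points lie to the right of the AGASAC points, and in ID1 and TGFBR3 every HGA lies above every AGASAC sample, at any marker sum. Of the AGASAC samples only primary 3 and primary 9 have a sum within the HGA range, so levels at a like sum can hardly be compared.

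Macrophage markers, which bear on TGFB1, also differed in level. Summed CPM of 8 macrophage markers was 83.1, 200.1 and 325 in HGA and 176, 333 and 524 in primary AGASAC, and 1 of the 8 was called lower in HGA by edgeR. With this sum as a term, also chosen after seeing the data, TGFB1 had a log2FC of −2.40 (edgeR adjusted p = 0.00557), while ACVR2B and SMAD7 were no longer called (edgeR adjusted p = 0.454 and 0.0857). Summed CPM of 4 plasma cell markers was 27.7 to 153 in HGA and 301 to 858 in primary AGASAC, without overlap. That gap lay in XBP1, at 18.7 to 48.9 CPM in HGA and 185 to 768 CPM in the primaries. JCHAIN overlapped, at 4.92 to 101 and 29.2 to 186 CPM, and MZB1 and TNFRSF17 were near 0 in most samples. The part of macrophages and plasma cells was not tested further.

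RNA was extracted in batches, of which 3 held at least 2 samples of each tumor type, with 3 HGA and 3 primaries, 3 and 2, and 2 and 3. A further batch, with 1 HGA and 1 primary, was not fitted on its own. All 11 called members kept their direction within each of these 3 batches, although at these sizes 2, 2 and 0 members were called (6.45%, 5.41% and 0%), against 2.12%, 4.84% and 2.46% of all genes. The names of the sequence files fall into 2 series, and the first held 9 of 10 HGA but only 3 primaries. Within it, TGFB1, INHBB, TGFBR3, SMAD2, ID1 and ID3 were called, which is 6 of 35 members (17.1%) against 16.1% of all genes. The other 5 kept their direction there, with log2FC of −1.66 for TGFBR1, −1.26 for ACVR1B, −1.73 for ACVR2B, 2.11 for LTBP4 and −1.61 for SMAD7.

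Other genes of the pathway were taken from a list of 71, of which 61 were found and 34 were tested. Of these 34, 11 were called, 7 higher and 4 lower in HGA, which is 32.4% against the background of 25.1%. With library size alone the split was 6 higher and 6 lower. None of the 12 further ligands found reached the filter. Among 5 further receptors and co-receptors tested, ENG and RGMA were higher in HGA. ENG, or endoglin, the TGF beta co-receptor of endothelium, was at 16.3, 49.0 and 117 CPM in HGA and at 4.69, 15.3 and 31.7 CPM in primary AGASAC, with a log2FC of 1.95 ± 0.32 (edgeR adjusted p = 0.000269). With the endothelium marker sum as a term the log2FC of ENG was 0.78 ± 0.41 and was not called (edgeR adjusted p = 1). RGMA, a BMP co-receptor, had a log2FC of 1.47 ± 0.34 (edgeR adjusted p = 0.00971). Its call ended with the endothelium sum (1.25, edgeR adjusted p = 0.596) or the macrophage sum (0.99, edgeR adjusted p = 0.4663) as a term.

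Among 8 further secreted proteins tested, the tolloid proteases BMP1 and TLL1, which cleave chordin and procollagen, were higher in HGA. TLL1 was at 41.9, 57.2 and 100.2 CPM in HGA and at 0.654, 4.37 and 26.8 CPM in primary AGASAC, without overlap, and its log2FC was 3.26 ± 0.48 (edgeR adjusted p = 5.80e-05). BMP1 had a log2FC of 1.79 ± 0.39 (edgeR adjusted p = 0.00513), and its call too ended with the endothelium or macrophage sum as a term (edgeR adjusted p = 0.291 and 0.0592). Among 14 intracellular regulators, the SMAD corepressors SKIL and TGIF2 were lower in HGA, at −1.39 ± 0.24 and −1.26 ± 0.25 (edgeR adjusted p = 0.000433 and 0.00198). In the first series of sequence file names neither was called, at −0.96 and −1.19 (edgeR adjusted p = 0.585 and 0.392). The TGIF2 call also ended with the endothelium sum as a term (edgeR adjusted p = 0.0785). PPM1A, a phosphatase that acts on SMADs, was higher at 1.12 ± 0.20 (edgeR adjusted p = 0.000769). This call ended with extraction batch as a term (log2FC 0.94), with library size alone (0.82) and in the first series of sequence file names (0.72). It also ended with the endothelium sum as a term (1.08, edgeR adjusted p = 0.0773). FKBP1A, an immunophilin that holds type I receptors inactive, was also higher, at 2.53 ± 0.35 (edgeR adjusted p = 2.05e-05). Reads that map to several places were divided over them, and how many of its reads did so was not measured here.

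Among 7 further targets tested, CDKN2B was higher and CTGF and MSX2 were lower in HGA. MSX2, a homeobox gene induced by BMP, was at 0, 3.59 and 21.5 CPM in HGA and at 27.1, 214 and 477 CPM in primary AGASAC, without overlap. Its log2FC of −5.15 ± 0.69 (edgeR adjusted p = 1.64e-05) was of opposite sign to those of ID1 and ID3, which are also BMP targets. CDKN2B, a cyclin-dependent kinase inhibitor induced by TGF beta, was at 4.30, 67.7 and 110.5 CPM in HGA and at 1.31, 8.02 and 11.2 CPM in primary AGASAC. The log2FC of CDKN2B was 3.14 ± 0.41 (edgeR adjusted p = 1.22e-05), and HGA 10 alone lay within the range of the primaries. CTGF, a matricellular target of TGF beta, had a log2FC of −1.84 ± 0.35 (edgeR adjusted p = 0.00159).

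Each metastasis could be set against the primary tumor of its own dog, in 4 dogs. The main fit did not hold the dog as a block and so left the pairing of tumors by dog unused. In this main fit, 0 of 34 members tested were called by edgeR, as were 0 of all 12629 genes (0%). At an unadjusted p under 0.05 there was 1 member, SMAD1, against 1.15% of all genes, and DESeq2 also called 0 members. With the dog as a block, edgeR again called 0 members. In that fit 3 members, BMP4, LTBP1 and SMAD1, had an unadjusted p under 0.05, against 3.89% of all genes. BMP4 was there at a log2FC of −1.06 ± 0.44. SMAD1, a BMP transducer, was at 22.3, 25.5, 27.6 and 14.7 CPM in primaries 1 to 4 and at 11.4, 16.7, 15.8 and 12.8 CPM in the metastases of these dogs. It was lower in the metastasis of 4 of 4 dogs, with a log2FC of −0.66 ± 0.27 (edgeR adjusted p = 1). LTBP1 was also lower in 4 of 4 dogs, at 9.64, 203, 24.02 and 39.7 CPM in the primaries and 7.46, 60.5, 9.33 and 27.8 CPM in the metastases. Its log2FC was −1.37 ± 0.97, or −1.05 ± 0.26 with the dog as a block, and did not pass (edgeR adjusted p = 1 in both). Summed CPM of 6 skeletal muscle markers was also lower in the metastasis of 4 of 4 dogs, at 22.6, 349.98, 15.7 and 331 in the primaries and 3.89, 2.12, 2.25 and 2.24 in the metastases. Over all primaries this sum was 8.26 to 850.3 against 0.430 to 15.6 in HGA, both tested markers were called lower in HGA by edgeR, and the part of muscle in the results was not tested. TGFBR2 was higher in the metastasis of 4 of 4 dogs, with a log2FC of 0.30 ± 0.24 that did not pass (edgeR adjusted p = 1).

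Levels of some members were close in both tumors of a dog. INHBB was at 46.1, 45.1, 130 and 96.7 CPM in the primaries and at 40.2, 47.8, 128 and 93.3 CPM in the metastases, in the same order of dogs. TGFB1 was high in both tumors of dog 1, at 76.0 and 70.1 CPM, while the other 3 dogs had 5.56, 21.6 and 22.8 CPM in the primary and 9.02, 9.01 and 7.99 CPM in the metastasis. INHBA went the other way in dog 2, with 26.1 CPM in the primary and 179 CPM in the metastasis, and was lower in the metastases of the other 3 dogs. In the same pair of samples, primary first, FSTL1 was at 98.7 and 269.6 CPM, FST at 3.59 and 13.0 CPM and GREM1 at 0.980 and 14.3 CPM. Metastasis 2 also had the highest fibroblast marker sum of all samples, at 13065 CPM against 6926 CPM in primary 2. Each of these is 1 sample, and the part of fibroblasts was not tested.

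**Figure D5:**
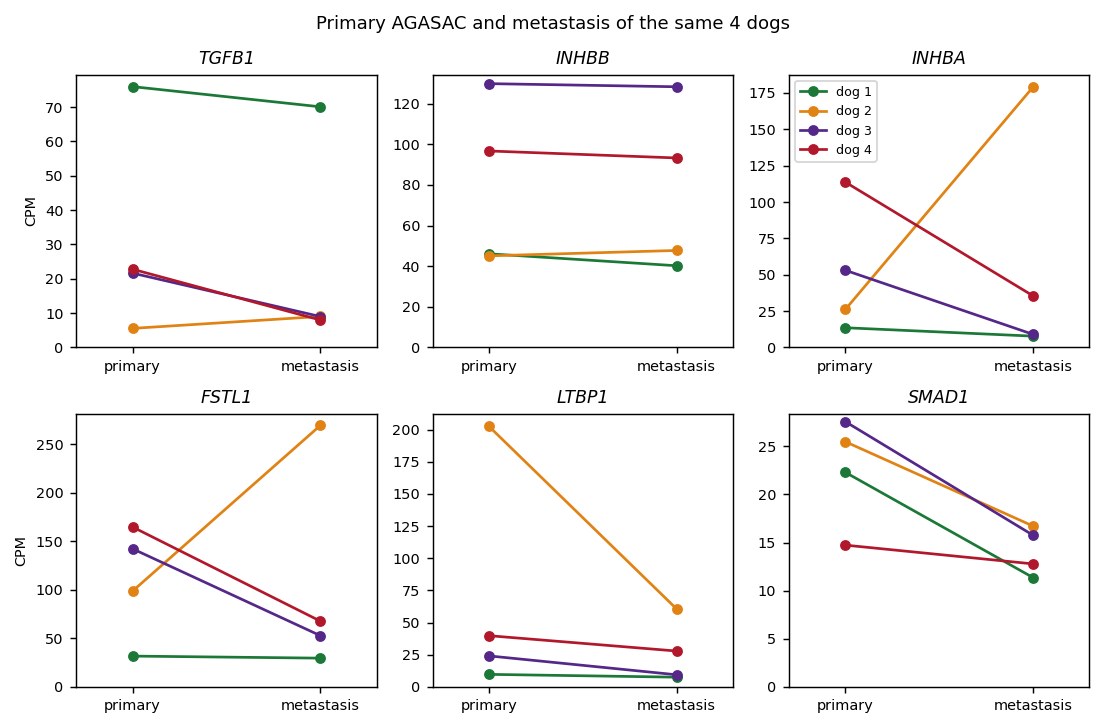
CPM of 6 members in the primary tumor and in the metastasis of the same 4 dogs, 1 line per dog. INHBB lines are nearly level, SMAD1 and LTBP1 are lower in the metastasis in 4 of 4 dogs, and INHBA and FSTL1 are higher there in dog 2 alone, none of them called.

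The metastases were also set against HGA, a comparison that shares the 10 HGA with that of the primaries. Of 35 members tested, 5 were called. TGFBR3, SMAD2 and ID1 were higher in HGA, and TGFB1 and INHBB were lower. Among all 13195 genes 16.1% were called, 8.40% higher and 7.69% lower in HGA, so that 5 of 35 (14.3%) lay near that background. With library size alone 8 were called, 2 higher and 6 lower. INHBB had a log2FC of −4.08 ± 0.48 (edgeR adjusted p = 9.70e-05). TGFBR3 was at 45.1, 30.5, 28.3 and 39.0 CPM in metastases 1 to 4, below all HGA, with a log2FC of 2.53 ± 0.29 (edgeR adjusted p = 7.84e-05).

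ID1 was at 3.57, 18.3, 10.9 and 6.39 CPM in these metastases, again below all HGA, with a log2FC of 3.25 ± 0.52 (edgeR adjusted p = 0.00164). ID3, in contrast, overlapped, since metastasis 2 had 87.3 CPM, and its log2FC of 1.78 ± 0.58 did not pass (edgeR adjusted p = 0.258). SMAD2 had a log2FC of 1.68 ± 0.36 (edgeR adjusted p = 0.0193), and this call ended without metastasis 1, 2 or 4 (edgeR adjusted p = 0.0964, 0.0798 and 0.0958) and with library size alone (edgeR adjusted p = 0.0690). TGFB1 had a log2FC of −2.43 ± 0.59 (edgeR adjusted p = 0.0467), and −1.01 without metastasis 1. Its call ended in 9 of the 14 fits that each left out 1 sample, namely without metastasis 1 or without HGA 1, 2, 3, 5, 6, 7, 8 or 9. TGFBR1 lay just short of the threshold, with a log2FC of −2.04 ± 0.50 (edgeR adjusted p = 0.0520). TGFBR1 was called with DESeq2 (adjusted p = 0.00860), RLE (edgeR adjusted p = 0.0451), library size alone (0.0206) or DV200, a measure of RNA fragment length, as a term (0.0220), and without HGA 2, HGA 9 or metastasis 3.

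Of the other pathway genes, 41 were tested against the metastases and 7 were called (17.1%, against 16.1% of all genes). NODAL, TLL1, FKBP1A and CDKN2B were higher in HGA, and SKIL, JUNB and MSX2 were lower. NODAL had 0 counts in the metastases and passed the filter through HGA alone. JUNB, an immediate early gene that TGF beta induces, was at 52.6, 92.4 and 128.5 CPM in HGA and at 141 to 352 CPM in the metastases, without overlap, with a log2FC of −1.31 ± 0.27 (edgeR adjusted p = 0.0141).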

How the data were processed

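QuantSeq 3′ libraries of 25 canine FFPE samples were analysed. The authors trimmed reads with cutadapt, aligned them to CanFam3.1 with STAR and counted them per gene with featureCounts, reassigning unassigned reads after extending the annotation by 2 kb at the 3′ end and dividing multi-mapped reads over their locations, so counts of genes with near-identical copies may be uncertain. The deposited raw counts were used. The same table holds, unused here, a deposited signal (counts that the authors divided by DESeq2 size factors, and their mean), and the authors' own comparison as log2 fold changes with standard errors and p-values. There were 0 unused columns of other samples. Genes keep the symbols of the table. No coordinates or sequences are printed, since the annotation used here is of another assembly.

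Groups came from the labels, which do not say more of the replicates than 1 tumor each, and extraction batches and sequence file names from the study's supplement. Genes were kept by filterByExpr (minimum count 10, minimum total 15), scaled by TMM and tested with edgeR 4.0.16 (R 4.3.3, glmQLFit and glmQLFTest), each comparison on its own groups without covariates, and adjusted by Benjamini-Yekutieli over all genes tested, which were 12070, 12629 and 13195. Standard errors are the log2FC over the root of F. The log2FC was not shrunken. CPM are descriptive and use 1 TMM scaling over 25 samples. DESeq2 1.42.0 and the other alternatives are in the closing section. HGA and primaries are different dogs. Metastases and primaries 1 to 4 pair by dog from the labels, and their deviations from group means correlated at 0.428 to 0.730 in 4 of 4 dogs. No libraries of a group agreed within sampling noise. Depth was 1562347 to 6389555 counts. There 3 counts, the limit that a count of 0 allows, equal 0.470 to 1.92 CPM by library size without TMM. This limit covers counting error only.

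The members, the pathway list and the marker lists were chosen with earlier results of these data known. Every member found is accounted for by role. Values and tests are given for members called in any comparison or not overlapping between HGA and primaries, up to 3 log2FC per role for the others, and up to 12 called pathway genes with the largest log2FC. Further values were chosen after they were seen.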

Additional observations from a re-analysis of the deposited data

Results flagged for a closer look

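In the 10 HGA and in the 4 metastases, the highest or lowest sample of a tested member was set against the others by Dixon's criterion on log2(CPM + 1). The 11 primaries were not examined, since the criterion was applied to groups of at most 10 samples. Of the 62 groups of values, 7 held a sample far from the others, and chance gives about 1 in 20. TGFB1 was at 70.1 CPM in metastasis 1, with the next metastasis at 9.02 CPM, and the primary tumor of the same dog was the highest primary. SMAD6 was at 3.24 CPM in metastasis 1, with the next at 9.33 CPM. TGFBR1 was at 0.424 CPM in HGA 9, with the next HGA at 5.39 CPM. BMPR1A was at 90.4 CPM in HGA 4, with the next at 48.8 CPM. TGFBR3 was at 94.7 CPM in HGA 7, with the next at 167 CPM. LTBP4 was at 8.60 CPM in HGA 10, with the next at 38.7 CPM, and SMAD2 was at 525 CPM in HGA 10, with the next at 225 CPM. HGA 4 and HGA 10 are also the libraries that stood apart on the second principal component.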

How the results depend on the processing

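None of the called members changed direction under any alternative, nor did the pathway genes called in HGA versus AGASAC primary. The pathway genes called in metastasis versus HGA were not followed through the alternatives. In HGA versus AGASAC primary, 11 members and 11 other pathway genes were called by edgeR. With at least 10 counts in every sample these were 6 and 5, where only 16 members were tested. Within extraction batches they were 2 and 0, 2 and 0, and 0 and 2, within the first naming series 6 and 7, and with the endothelium marker sum as a term (chosen after seeing the data) 5 and 6. In metastasis versus HGA, 5 members were called, against 8 with library size alone (median of all genes −0.26), 3 with at least 10 counts in every sample and 11 with Benjamini-Hochberg. Leaving out 1 sample gave 10 to 13 members and 11 to 14 pathway genes in HGA versus primary, 3 to 7 members in metastasis versus HGA, the lowest without metastasis 1, and 0 to 0 in metastasis versus primary. HGA 4 and HGA 10 left out together, also chosen after seeing the data, gave 12 members and 15 pathway genes. All other counts were within 1.5 times those reported; DESeq2 gave 14 members and 15 pathway genes. With the dog as a replicate block, metastasis versus primary gave 0 called members and 3 at an unadjusted p under 0.05, against 491 of 12629 genes (3.89%) and 1 gene called. HGA and primaries share only a number (correlation −0.0460 to 0.0446), and that replicate block gave 10 members and 11 pathway genes, without LTBP4. The TGFB1 call in metastasis versus HGA also ended with no filter or with DV200, a measure of RNA fragment length, as a term. The shallowest library, an HGA, limits what was seen of genes under 1.92 CPM by library size without TMM.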

Other observations

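NODAL, a ligand of the activin branch known from the early embryo, is outside the 50 members and was singled out after its values were seen. It had counts in 9 of 10 HGA, with a mean of 6.12 ± 5.76 CPM (SD, n = 10), at most 2 counts in a primary AGASAC and 0 counts in all 4 metastases. Against the metastases it passed the filter through HGA alone, so its call there (edgeR adjusted p = 0.0419) is no separate evidence. It was below the filter against the primaries. Against the 3 counts that a count of 0 allows in the shallowest of the AGASAC libraries, its mean in HGA was at least 5.27-fold higher. These 3 counts are 1.16 CPM by library size without TMM, whereas the mean in HGA is TMM-scaled. HGA 9 had 0 counts of NODAL, and HGA 8 had the highest level, at 17.3 CPM.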
